A study of Mus musculus with 6 samples.

Results

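The aminoacyl-tRNA synthetases were followed in mouse embryoid bodies that contained spinal motor neurons and had been exposed to blood fluid of mice that model Huntington's disease. Members were the genes of the table whose name was on a list of 35 synthetase names, or was one of those names followed by the digit of the mitochondrial enzyme. Of these names 33 were found, and 1 more gene was added by the second part of the rule. The set therefore held 34 of the 19613 genes in the table, namely 19 cytosolic and 15 mitochondrial enzymes. Wars and Fars2 were not analysed here.

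The embryoid bodies were grown from the mouse embryonic stem cell line HGB3, as the methods spell it, which carry an enhanced green fluorescent protein reporter under the Hb9 promoter, active in motor neurons, and were directed to a spinal fate with retinoic acid and a hedgehog agonist. All 6 arrays belonged to 1 group. The fluid came from presymptomatic male carriers of the strain B6CBA-Tg(HDexon1)62Gpb/3J, which express exon 1 of the human huntingtin gene, and was given to the cultures for a day. The strain is that of the donors of the fluid and not of the cells, and the transgene models a fragment of the protein. The sample labels call the fluid plasma, whereas the series title and the methods call it serum. The arrays carry the replicate numbers 2, 4, 5, 6, 7 and 8, which only name them. No control arrays were analysed here, so nothing below is a response to the fluid. The study counts a serum sample for each array, but the sources do not say whether these came from different mice or were applied on different days. The spread between arrays may therefore be partly technical.

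A synthetase joins an amino acid to its transfer RNA, and nearly every enzyme serves 1 amino acid. This step sets which amino acid a codon is read as. Cytosolic enzymes serve protein synthesis on ribosomes of the cytoplasm, and a separate set, encoded in the nucleus and imported, serves the ribosomes of mitochondria. Gars and Kars are exceptions, since each encodes both the cytosolic and the mitochondrial enzyme. When amino acids run short or the endoplasmic reticulum is stressed, the transcription factor ATF4 is made and switches on amino acid transporters, biosynthetic enzymes and many cytosolic synthetases. Dominant mutations in the human genes GARS, YARS, AARS and HARS cause inherited neuropathies of the Charcot-Marie-Tooth type, in which motor axons are lost.

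A sequence to which ATF4 dimers can bind was found in promoters of cytosolic synthetases and in none of those of mitochondrial ones. Promoters were taken from RefSeq (GRCm38.p6) as 250 bases before to 50 bases after each gene's start, and 12 of the 19 cytosolic and 13 of the 15 mitochondrial genes had an entry. The core of the response element shared by C/EBP and ATF factors, TGATGNAA, was searched on both strands, so that on the opposite strand it reads TTNCATCA. No other motif was searched. It was present in 5 of the 12 cytosolic genes, namely Aars, Gars, Tars, Yars and Iars, and in 0 of the 13 mitochondrial genes. Of all 32851 promoters of this length, 3.97% held it. A match describes letters only and is not a shown binding site. The 120 bases before the start are printed for the 3 cytosolic genes with a match in that stretch, and for the mitochondrial counterparts of 2 of them, in which no match was found. They lie at chr8:111033722-111033841 (plus strand) for Aars, chr6:55037881-55038000 (plus strand) for Gars, chr15:11399659-11399778 (minus strand) for Tars, chr17:45506712-45506831 (plus strand) for Aars2 and chr3:95754978-95755097 (minus strand) for Tars2. Each reads 5′ to 3′ on the strand of the gene, and capitals mark the match.
Aars: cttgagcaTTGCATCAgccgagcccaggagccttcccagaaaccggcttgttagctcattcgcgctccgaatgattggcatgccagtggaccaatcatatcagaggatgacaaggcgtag
Gars: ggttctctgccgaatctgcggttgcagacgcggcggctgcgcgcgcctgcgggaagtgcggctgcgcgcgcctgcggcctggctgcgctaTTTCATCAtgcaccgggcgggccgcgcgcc
Tars: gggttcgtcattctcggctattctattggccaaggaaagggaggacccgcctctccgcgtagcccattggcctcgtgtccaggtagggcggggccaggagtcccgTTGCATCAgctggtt
Aars2: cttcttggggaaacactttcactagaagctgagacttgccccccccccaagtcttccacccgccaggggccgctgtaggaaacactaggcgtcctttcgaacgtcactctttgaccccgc
Tars2: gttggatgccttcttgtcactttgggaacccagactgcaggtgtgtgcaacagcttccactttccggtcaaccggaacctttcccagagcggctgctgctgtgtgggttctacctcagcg
Counting the first base of the transcript as 1 and the base before it as -1, the match began at -112 in Aars, at -30 in Gars and at -15 in Tars. Aars had a second match at 10. In Yars and Iars the match lay just after the start, at 4 and at 8. The 30 bases around it are at chr4:129189895-129189924 for Yars and chr13:49682126-49682155 for Iars, both on the plus strand.
Yars: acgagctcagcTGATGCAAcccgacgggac
Iars: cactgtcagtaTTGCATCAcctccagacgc
The match in Yars was on the strand of the gene and the other matches were on the opposite strand.

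The arrays resembled each other closely, with Pearson's r between 0.991 and 0.997 for pairs of arrays over all genes. Median intensities ran from 296 to 311. The lower quartile of intensity was 109 in replicate 8 and 121 to 129 in the other arrays, so dim genes were read lower in that array. Motor neuron identity was checked with 6 markers, all of which lay above background with a mean log2 intensity of 9.22 ± 0.063 (SD, n = 6). Glial markers lay lower, with 4 of 5 above background and a mean of 8.07 ± 0.060 (SD, n = 6), and 0 of the 3 blood markers in the table lay above it. Of 8 markers of non-neural cells 3 lay above background, namely T, Col1a1 and Acta2, and their mean ran from 8.19 in replicate 8 to 8.54 in replicate 7. Background was set at a log2 intensity of 7.47, the 95th percentile of the 1032 olfactory receptor genes, and 12793 genes (65.2% of the table) lay above it. All 34 synthetases lay above it.

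Cytosolic synthetases were read as far brighter than mitochondrial ones in every array. The mean log2 intensity of the 19 cytosolic genes was 10.74, 10.75, 10.69, 10.67, 10.62 and 10.60 in replicates 2, 4, 5, 6, 7 and 8. That of the 15 mitochondrial genes was 8.76, 8.79, 8.76, 8.71, 8.68 and 8.77. The set means did not overlap over the arrays, with averages of 10.68 ± 0.060 and 8.74 ± 0.040 (SD, n = 6). The cytosolic mean exceeded the mitochondrial mean by 1.93 ± 0.052 (SD, n = 6) on the log2 scale, a ratio of 3.82 between the geometric means. Among all genes of the table the cytosolic members stood between percentiles 65.7 and 98.7, with a median of 93.1, and the mitochondrial members between 51.3 and 74.98, with a median of 56.8. Genes above background were split by intensity into 4 groups of equal size, and in the brightest of them were 16 of 19 cytosolic and 0 of 15 mitochondrial genes. Probes of different genes bind with different strength, so these orders rank intensities and not amounts of transcript. Because the embryoid bodies hold several cell types, fewer cells of a type and less RNA per cell cannot be told apart.

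**Figure D1:**
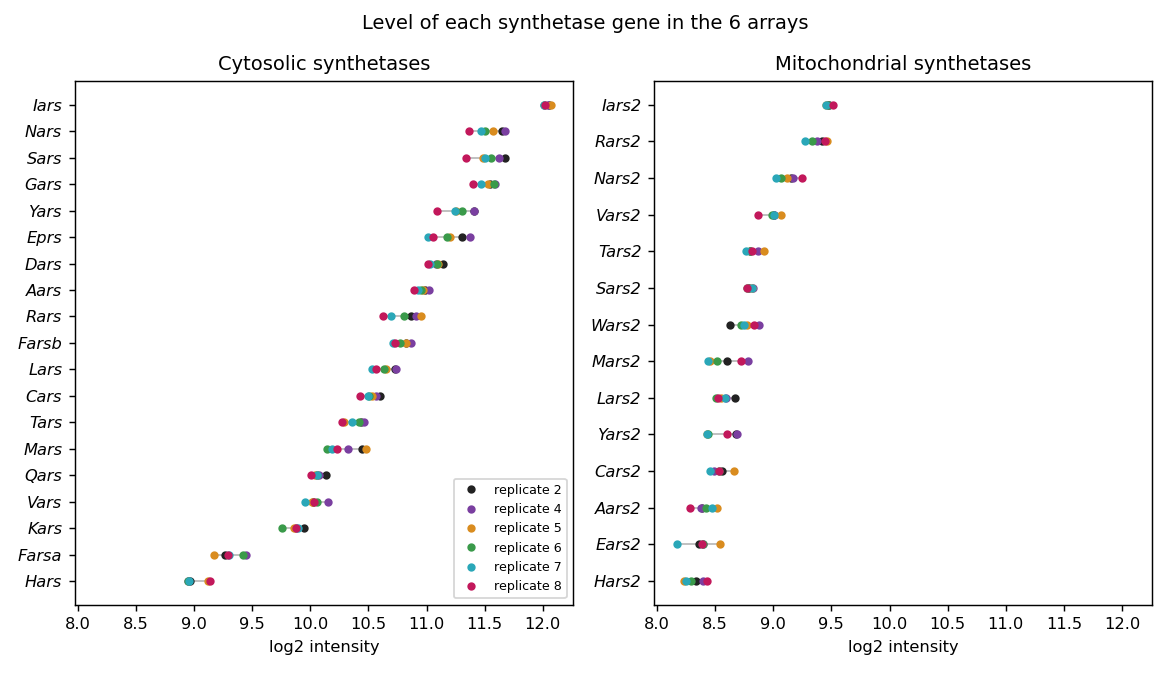
Log2 intensity (x axis) of 33 synthetase genes (y axis), with 1 point per array (n = 6), a colour for each array, and cytosolic and mitochondrial genes in separate panels. Iars (mean 12.03) is the brightest and Hars (mean 9.01) the dimmest cytosolic gene, and the mitochondrial genes run from Hars2 (8.32) to Iars2 (9.47).

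The same order held enzyme by enzyme. For 13 amino acids the cytosolic and the mitochondrial gene had matching names, and the cytosolic gene was brighter in all 6 arrays in 13 of 13. Eprs (11.19) and Ears2 (8.38), which share glutamate but not a name, were not counted as a pair. They stood further apart than any of the 13 pairs. Among these 13 pairs the difference was smallest for histidine, 0.69 (Hars 9.01, Hars2 8.32). It was largest for tyrosine, 2.74 (Yars 11.29, Yars2 8.54), with a median of 2.07 on the log2 scale. Between these lay valine with 1.05, threonine with 1.54, leucine with 2.07 and isoleucine with 2.56. Across enzymes the sets overlapped, since Hars (9.01) and Farsa (9.32) lay below Iars2 (9.47) and Rars2 (9.38). In the histidine pair, which stood closest, Hars was the dimmest cytosolic gene and Hars2 the dimmest of all 34.

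Of the cytosolic enzymes 8 are held together in the multisynthetase complex, a particle of the cytoplasm. Iars, which charges isoleucine, was the brightest member and among the steadiest, with a lowest, median and highest log2 intensity of 12.01, 12.03 and 12.07. Eprs, which carries the glutamate and the proline activity in 1 protein, ranged from 11.02 through a median of 11.19 to 11.37. Its lowest value was in replicate 7 and its highest in replicate 4, a span of 1.28-fold and the widest of the cytosolic genes. Mars, the methionine enzyme, ranged from 10.14 through 10.28 to 10.48. It was high in replicates 2, 4 and 5, at 10.44, 10.33 and 10.48, and low in the other arrays, at 10.14 to 10.23. Rars, the arginine enzyme, ranged from 10.62 in replicate 8 through 10.83 to 10.95 in replicate 5. The leucine enzyme Lars ranged from 10.53 through 10.64 to 10.74, and the glutamine enzyme Qars from 10.01 through 10.06 to 10.14. Dars, the aspartate enzyme, lay between 11.01 and 11.14, and Kars, the lysine enzyme that also serves mitochondria, between 9.75 and 9.95. The lowest array of Kars was replicate 6, and its other 5 values lay within 9.86 to 9.95.

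Among the 11 cytosolic genes outside the complex, those that charge asparagine, serine and tyrosine had wide and similar spreads. Nars ran from 11.36 through a median of 11.54 to 11.67, Sars from 11.34 through 11.53 to 11.67 and Yars from 11.09 through 11.28 to 11.41. All 3 were lowest in replicate 8 and highest in replicate 2 or 4. Gars, the glycine enzyme, ran from 11.40 through 11.54 to 11.59, and the alanine enzyme Aars from 10.89 through 10.96 to 11.02. Both were lowest in replicate 8 and highest in replicate 4. Cars, the cysteine enzyme, lay between 10.42 and 10.60, Tars, the threonine enzyme, between 10.27 and 10.46, and Vars, the valine enzyme, between 9.95 and 10.15. Farsa and Farsb encode the subunits of 1 phenylalanine enzyme. Farsb ran from 10.71 through 10.80 to 10.87 and Farsa from 9.17 through 9.29 to 9.45. Their r over the arrays was 0.132, and Farsa was high in replicates 4 and 6 whereas Farsb was high in replicates 2, 4 and 5. Hars ran from 8.95 through 8.96 to 9.14 and was high in replicates 5 and 8 alone, at 9.12 and 9.14.

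The mitochondrial genes were dimmer and did not share 1 order of the arrays. Mars2 ran from 8.44 through a median of 8.56 to 8.79, Ears2, the glutamate enzyme, from 8.17 through 8.39 to 8.55, and Yars2 from 8.43 through 8.52 to 8.69. Mars2 and Yars2 were both high in replicates 2, 4 and 8 and low in replicates 5, 6 and 7, whereas Ears2 was highest in replicate 5 and lowest in replicate 7. The steadiest were Iars2, between 9.45 and 9.52, and Sars2, between 8.77 and 8.83, each with a span of 1.04-fold. Aars2 ran from 8.28 in replicate 8 through 8.41 to 8.51 in replicate 5. A further 8 mitochondrial genes, which charge arginine, asparagine, cysteine, histidine, leucine, threonine, tryptophan and valine, had SDs between 0.057 and 0.088. Rars2 was the second brightest mitochondrial gene, with a mean of 9.38.

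The spread between arrays was small in both sets. The SD of a member had a median of 0.079 among cytosolic and 0.071 among mitochondrial genes, beside 0.076 over all genes above background. The span from the lowest to the highest array had a median of 1.14-fold in each set and 1.15-fold over all genes. Bright genes spread less, the median SD falling from 0.111 in the dimmest of the 4 intensity groups to 0.058 in the brightest. Against the median of their own group, 14 of 19 cytosolic and 7 of 15 mitochondrial genes spread more. An SD above 0.1 was found in 7 of 19 cytosolic genes (Eprs, Farsa, Mars, Nars, Rars, Sars and Yars) and in 3 of 15 mitochondrial genes (Ears2, Mars2 and Yars2), where 31.2% of all genes had one. In the brightest group this share was 13.9%, and of the 16 cytosolic genes there 6 passed it.

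**Figure D2:**
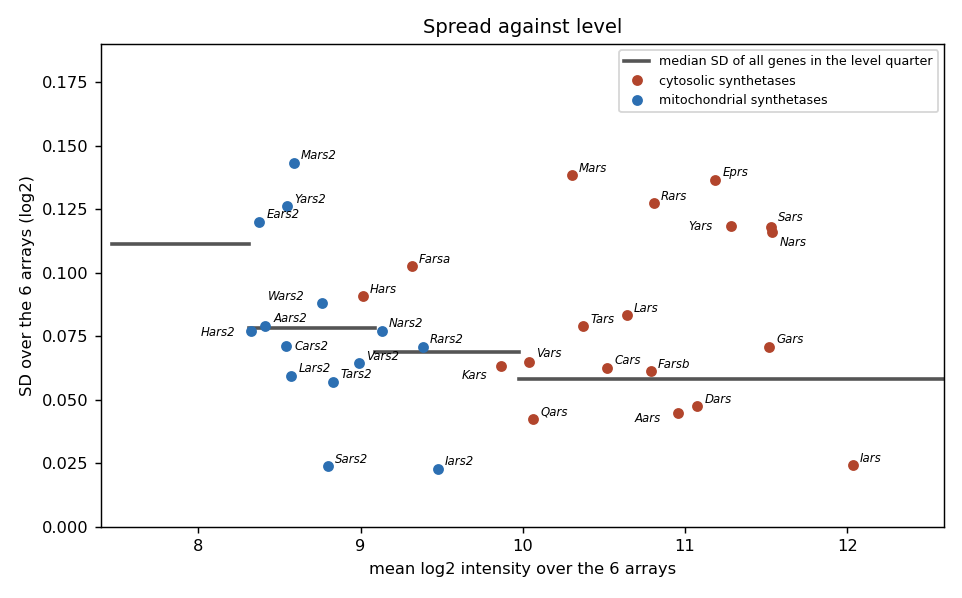
SD over the 6 arrays (y axis, log2) against mean log2 intensity (x axis) for 33 synthetase genes, with lines for the median over all genes above background in each of the 4 intensity groups. Eprs, Mars, Rars, Sars, Yars and Nars lie above 0.1 at an intensity where the median SD was 0.058, and Iars lies below it at 0.024.

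Most cytosolic synthetases varied together over the 6 arrays. The highest value lay in replicate 2 for 6 genes, in replicate 4 for 9, in replicate 5 for 3 and in replicate 8 for Hars alone, and 11.8%, 14.7%, 20.4% and 27.5% of all genes were highest in these arrays. The lowest value lay in replicate 8 for 10 genes, in replicates 6 and 7 for 4 each and in replicate 5 for Farsa, where 26.4%, 15.2%, 17.9% and 19.6% of all genes were lowest. Of the mitochondrial genes 8 were lowest in replicate 7, 6 were highest in replicate 5, and 4 each were highest in replicates 4 and 8. Lars2 was highest in replicate 2, where 1 mitochondrial gene, Wars2, was lowest and 10.1% of all genes were. Highest in replicate 2 or 4 and also lowest in replicate 7 or 8 were 13 of 19 cytosolic and 2 of 15 mitochondrial genes, beside 12.5% of all genes, a split chosen after the values were seen. The highest and the lowest mean of the set, 10.75 in replicate 4 and 10.60 in replicate 8, were 1.11-fold apart. The correlation of each gene with the mean of the other cytosolic genes had a median of 0.827 (n = 6 arrays), and 11 of 19 were over 0.8. Of genes other than members, 3.46% had r over 0.8 with the mean of all 19. In the mitochondrial set the same median was 0.520, with 1 of 15 over 0.8, beside 5.89% of genes other than members. Among the cytosolic genes Nars (0.980), Aars (0.970), Eprs (0.959) and Lars (0.955) followed the others most closely. Hars (-0.486) ran against them, and Farsa (0.113) and Kars (0.185) showed little relation. All these correlations share the same 6 arrays and their scaling, and are given as a description.

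**Figure D3:**
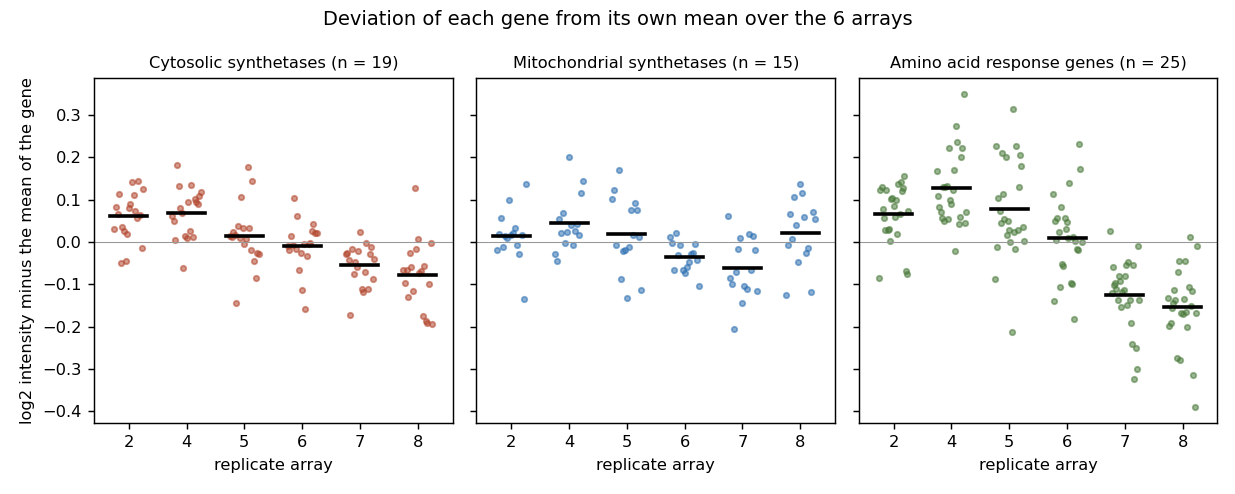
Deviation of each gene from its own mean (y axis, log2) in each array (x axis, replicate number) for 19 cytosolic synthetases, 15 mitochondrial synthetases and 25 amino acid response genes, with 1 point per gene and a black bar at the mean of the set. The cytosolic and amino acid response bars are highest in replicate 4 and lowest in replicate 8, and the mitochondrial bar is lowest in replicate 7.

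By pairs of genes, correlations were higher within the cytosolic set than within the mitochondrial set or between them. Of its 171 pairs 148 had r above 0 and 49 (28.7%) had r over 0.8, beside 5.19% of all pairs of genes above background and 4.69% of pairs in the brightest group. The mean r was 0.479, the median 0.660, and the range ran from -0.899 for Hars and Tars to 0.990 for Sars and Yars. Eprs and Lars reached 0.988, Aars and Nars 0.986 and Iars and Mars 0.975. Within the mitochondrial set 14 of 105 pairs (13.3%) were over 0.8, with a mean of 0.172, and the extremes were -0.954 for Aars2 and Hars2 and 0.951 for Hars2 and Mars2. Aars2 also ran against Iars2 at -0.954, and Iars2 against Vars2 at -0.905. Between the sets 3 of 285 pairs (1.05%) were over 0.8, with a mean of 0.183. That mean was 0.337 without replicate 8, 0.085 without replicate 7 and 0.092 without replicate 4, and the mean within the mitochondrial set was 0.108 without replicate 7. Both means were 0.094 when the arrays were quantile normalised, and the mitochondrial one was 0.292 after median centring. Over the removal of each array in turn, the mean within the cytosolic set stayed between 0.428 and 0.538.

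**Figure D4:**
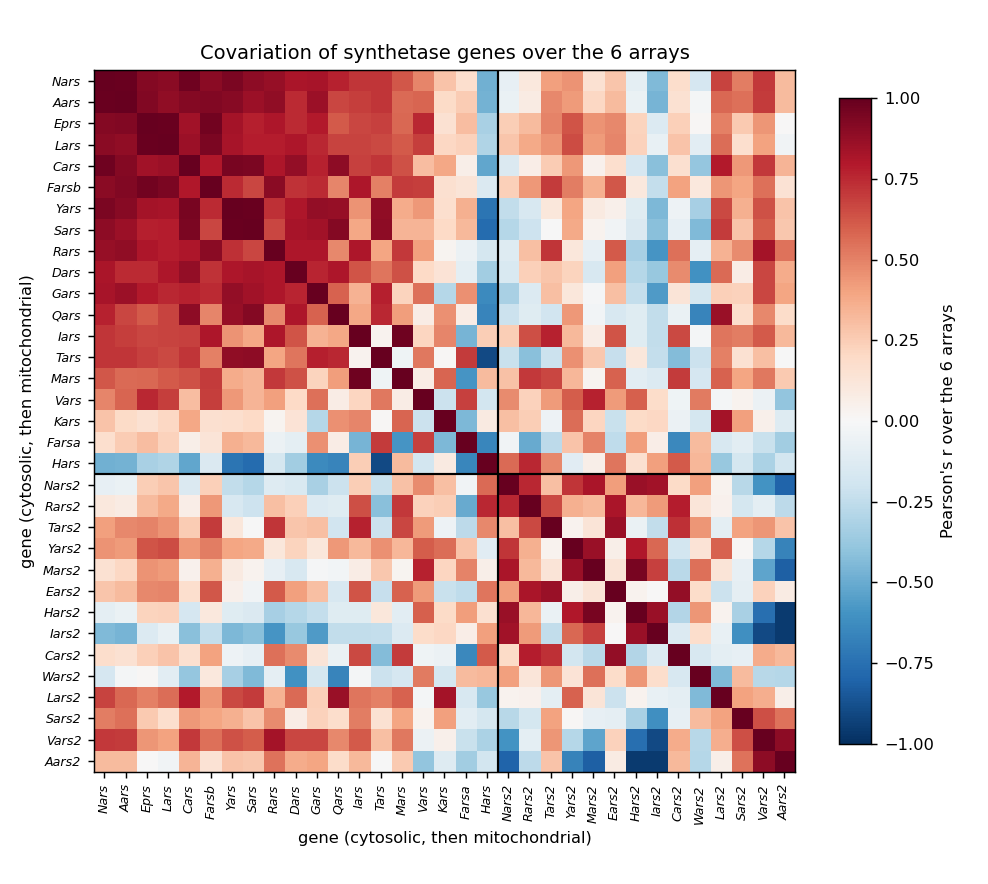
Pearson's r over 6 arrays for every pair of 33 synthetase genes, as a colour from -1 to 1, with genes of the cytosolic set before those of the mitochondrial set. High values gather among the cytosolic genes, where 49 of 171 pairs are over 0.8, and Hars, Farsa and Kars stand apart from them.

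Membership of the multisynthetase complex went with modest differences, whose direction depended on the measure. The mean r was 0.595 among the 8 enzymes of the complex, with all 28 pairs above 0, and 0.456 among the 11 enzymes outside it. The median r was lower in the complex, 0.633 against 0.694. Pairs over 0.8 were also a smaller share there, 7 of 28 (25%) against 19 of 55 (34.5%) outside it. A larger difference lay between 11 cytosolic genes that the study's supplement notes as targets of ATF4 (Aars, Cars, Eprs, Gars, Iars, Lars, Mars, Nars, Sars, Tars and Yars) and the 8 without the note. The mean r was 0.731 within the noted genes, with 26 of 55 pairs over 0.8, and 0.156 within those without the note, with 3 of 28. All 5 cytosolic genes with the promoter motif are among the noted ones, 7 of which had a promoter entry. The note comes with genes that the study had picked on other arrays of the same cells, so it is no independent sorting. The noted genes were also brighter, with a mean of 11.08 against 10.12, and the part of brightness in the difference was not tested.

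The cytosolic and the mitochondrial enzyme of 1 amino acid varied with little relation to each other. Over the 13 pairs of matching name r ran from -0.249 for isoleucine to 0.556 for leucine with a median of 0.158, and 9 values were above 0. The means of the sets had r = 0.525 and Spearman's rho = 0.371 over the 6 arrays. Without replicates 6 and 7, where the mitochondrial mean lay farthest from its median, r was 0.351. Without replicate 8 alone r was 0.929. In that array the cytosolic mean was at its lowest, 10.60, while the mitochondrial mean was at its second highest, 8.77, and their difference was 1.83 against 1.93 to 1.98 elsewhere. Replicate 8 was also the array with the lowest lower quartile of intensity. Over the 6 arrays the mitochondrial mean had r = -0.563 and rho = -0.829 with the lower quartile, and r = -0.739 without replicate 8. The cytosolic mean had r = 0.247 and rho = -0.086 with it, and r = -0.878 without replicate 8. The mean of the non-neural markers above background moved against the mitochondrial mean, with r = -0.907 over the 6 arrays. Singly, r was -0.837 for Acta2, -0.641 for T and -0.329 for Col1a1, and Acta2 spread most (SD 0.310). The mean of these markers was 8.52 and 8.54 in replicates 6 and 7, where the mitochondrial mean was 8.71 and 8.68, and 8.19 to 8.36 in the other arrays. This list held T, Col1a1 and Acta2 above background, the other 5 markers lay below it, and its part in the mitochondrial values was not tested. With the cytosolic mean its r was -0.339.

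The cytosolic synthetases shared their order of the arrays with the amino acid response. Of a list of 26 genes, 25 were in the table and all 25 lay above background. These are genes of amino acid transport, amino acid synthesis and stress signalling, Atf4 and Ddit3 among them and none an aminoacyl-tRNA synthetase. Their mean was 11.13, 11.19, 11.14, 11.07, 10.94 and 10.91 in replicates 2, 4, 5, 6, 7 and 8. The mean of the cytosolic synthetases followed it with r = 0.952 and rho = 0.943. Without replicates 7 and 8, where the mean of the list lay farthest from its median, r was 0.804. Without replicate 8 alone r was 0.918. After median centring of the arrays r was 0.891. Each of the 25 genes had r above 0 with the cytosolic mean, and 15 were over 0.8, where 3.46% of genes other than members were. The transporters Slc7a5 (0.965) and Slc7a1 (0.958), the stress factor Atf3 (0.958) and the asparagine synthetase Asns (0.905) were among them. Asns ran from 12.23 in replicate 8 through 12.44 to 12.55 in replicate 2, and Slc7a5 from 12.53 in replicate 8 through 12.74 to 12.80 in replicate 2. The mitochondrial mean had r over 0.8 with 2 of the 25, where 5.89% of other genes passed that value. With 23 of the 25 its r was above 0. With the mean of the list its r was 0.528 and rho 0.429 over the 6 arrays. This r was 0.985 without replicates 7 and 8 and 0.957 without replicate 8 alone, both above those of the cytosolic mean.

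Fewer of the other genes of translation passed 0.8 than of the amino acid response. With the cytosolic mean 3.46% of genes other than members passed it, and with the mitochondrial mean 5.89%. The lists are short, and their counts were not tested against those shares. A list of 14 further genes of tRNA charging above background includes scaffolds of the multisynthetase complex. It also holds Pars2, the mitochondrial proline enzyme, and Tarsl2, named as similar to Tars, neither of which the rule took in. Tarsl2 had r = -0.611 with the cytosolic mean, and Pars2 had r = -0.060 with the mitochondrial mean. Of these 14 genes 1 passed with the cytosolic mean. This was Xpot, which exports tRNA from the nucleus (0.951). The scaffold genes Aimp1, Aimp2 and Eef1e1 had r of 0.31, -0.11 and -0.09. With the mitochondrial mean 1 of the 14 passed, Aimp1 (0.890). The mean of these 14 genes had r = 0.659 with the cytosolic and 0.892 with the mitochondrial mean. Of 12 cytosolic translation factors 2 passed, Eef2 and Eif2s2, and of 9 mitochondrial translation factors 0 did. With the mitochondrial mean, 0 of those 9 factors passed 0.8, although their own mean had r = 0.919 with it and 8 of 9 had r above 0.

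Atf4 itself was only loosely related to the cytosolic synthetases. Its log2 intensity was 11.43, 11.68, 11.43, 11.62, 11.54 and 11.38 in replicates 2, 4, 5, 6, 7 and 8, highest in replicate 4 and lowest in replicate 8, as was the cytosolic mean. Between these ends the orders differed, since replicate 2 was low in Atf4 and replicates 6 and 7 were high. The cytosolic mean had r = 0.361 and rho = 0.543 with Atf4. Without replicates 4 and 6, where Atf4 lay farthest from its median, r was -0.127. This r was 0.030 without replicate 8 alone, -0.036 without replicate 4 and 0.654 without replicate 2. Ddit3, the gene of the stress factor CHOP, had r = 0.795 and rho = 0.714 with the cytosolic mean. Array values of Atf4 are of its transcript, and its protein, whose synthesis is controlled at translation, was not measured.

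The slope of each gene on Atf4 was fitted with limma over 12792 genes. No gene passed an adjusted p of 0.05 (lowest adjusted p = 0.388), and 698 genes (5.46%) passed an unadjusted p of 0.05, as did 593 by exact permutation of the arrays, which also gave 0 adjusted calls. Of the 34 synthetases 0 passed the adjusted and 1 the unadjusted threshold. This was Farsa, with a slope of 0.72 ± 0.24 (SE) log2 units per log2 unit of Atf4 and a limma p of 0.0138 (adjusted p = 0.858), and its p was 0.0815 without replicate 4 and 0.053 without replicate 6. Without replicate 2 the unadjusted threshold was passed by 6 synthetases, and without replicate 4 or 6 by 0. Of the 12792 genes, 639 passed it without replicate 2, 1277 without replicate 4 and 270 without replicate 6. Slopes were positive for 15 of 19 cytosolic and 6 of 15 mitochondrial genes and for 6474 of the 12792 genes fitted, with medians of 0.18 and -0.017 beside 0.0043 over all genes. The lowest cytosolic slope was that of Hars, -0.56 ± 0.26 (SE). The 11 noted targets of ATF4 all missed the unadjusted threshold, which only 5.46% of all genes passed.

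**Figure D5:**
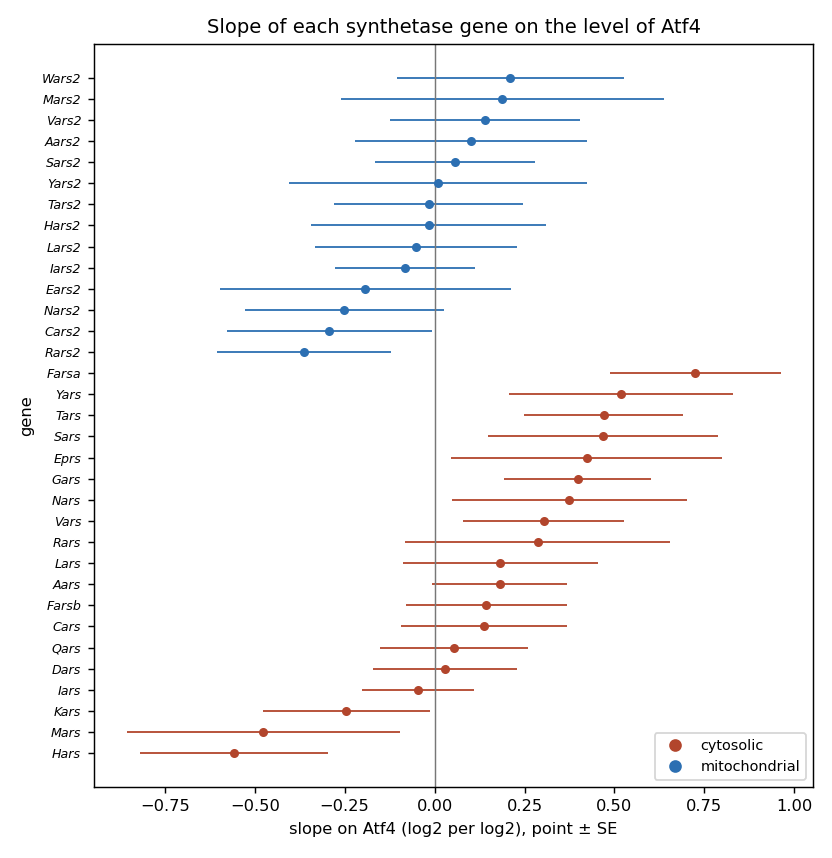
Slope of 33 synthetase genes on Atf4 (x axis, log2 units per log2 unit) over 6 arrays, with bars for 1 SE from limma, by gene (y axis). Only Farsa (0.72 ± 0.24) passed an unadjusted p of 0.05, and no gene passed after adjustment.

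The content of motor neurons was followed by averaging Isl1, Lhx3, Mnx1 and Olig2, transcription factors of the motor neuron lineage. By limma 0 of 12789 genes passed an adjusted p of 0.05 for a slope on this mean, while 581 (4.54%) passed an unadjusted p of 0.05. Exact permutation, with the same limit on its lowest p, gave 0 and 603. Hars and Ears2 passed the unadjusted threshold, with slopes of 1.04 ± 0.38 and 1.29 ± 0.51 (SE) and an adjusted p of 0.999 in limma for each. Hars missed the threshold without replicate 5, and Ears2 without replicate 5 or 7. The cytosolic mean had r = -0.218 with this mean, or 0.034 without replicate 8, and the mitochondrial mean 0.370. The 4 genes differed among themselves, with r to the cytosolic mean of -0.801 for Isl1, -0.275 for Mnx1, 0.202 for Olig2 and 0.426 for Lhx3.

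Genes whose order of the arrays came closest to each set were named by rank. For the cytosolic mean these were Kctd3 (r = 0.988), Hsd17b1, Mef2b, Iah1, Aldh1l2, Arhgef3, St3gal3, Gpr126 and Rps20 (0.975). Aldh1l2 is the mitochondrial formyltetrahydrofolate dehydrogenase, and Rps20 is a protein of the small ribosomal subunit. For the mitochondrial mean they were Yes1 (0.999), Pabpc1l2b.ps as the file spells it, Kif13b, Lcmt2, Tcn2, Glrb, Tbcel, Arl4d, Exosc8 and Rrp1b (0.977). They are the top of 12759 genes compared over only 6 arrays, and are given as nearest neighbours with no test.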

How the data were processed

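RNA of the embryoid bodies was hybridised to Affymetrix mouse exon arrays (MoEx-1_0-st-v1). The authors deposited 1 intensity per gene and array on a linear scale, made per their methods by Robust Multi-array Averaging in Aroma Affymetrix and averaged over the annotated exons of a gene. The processing notes also name Affymetrix Expression Console and RMA. The genome build is not given in the sources used here. The log2 of the deposited intensities was taken with no pseudocount and no further scaling. The members and gene lists were chosen with earlier results of these data known. The rule was to name all members, those genes of the lists needed to describe them and, for each set, the 10 genes with the highest r. A mitochondrial member, counted in all sets, and a gene near the cytosolic mean are not reported here by name. Slopes were fitted with limma 3.58.1 (R 4.3.3; lmFit, eBayes with a trend) over all genes above background, and p-values were adjusted by the Benjamini-Hochberg method. The exact permutation test ran over the 720 orders of the arrays, two-sided. The steps were tested on simulated data, in which arrays were independent and slopes on Atf4 were steeper than those of the synthetases. That run does not cover slopes as small as theirs. Columns of other samples numbered 0. Arrays give no read depth, so the number of arrays limits the precision. Alternatives were median centring, quantile normalization, a pseudocount of 16, a background at the 99th percentile, no filter, Spearman's rho, the range in place of the SD, a covariate, no trend, and leaving out each array. The labels name no batch, and relations could therefore not be split by one.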

Additional observations from a re-analysis of the deposited data

Results flagged for a closer look

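Of 48 sets of values screened (34 synthetase genes and 14 lists), 1 held an array that stood apart from the other 5, where chance gives about 1 in 20, or 2.4. This was the mean of the glial markers, at 7.96 in replicate 8 and 8.07 to 8.13 in the other arrays. The gap of that array to its neighbour was 0.654 of the whole range, above Dixon's critical value for 6 arrays. No synthetase gene and neither synthetase mean passed that value. Replicate 8 was also the array with the lowest lower quartile of intensity and with the lowest cytosolic mean. The part of that array's low intensities in the glial mean was not tested.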

How the results depend on the processing

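Of the main values under an alternative, 116 stayed close to the main value and 3 did not. Part of this was fixed in advance. All members lay above background, so removing the filter left set levels, spreads and correlations unchanged. Median centring keeps a level averaged over arrays, and some of the 116 compare a count of 0 with 0. Close meant within 1 SD over arrays for a level, within 1 jackknife standard error (from leaving out each array) for a spread or mean r, and within 1.5 times for a count. That error was wide for the mean r between the sets, 0.190 beside a value of 0.183, and for the mitochondrial set, 0.119 beside 0.172, so these correlations are poorly fixed by 6 arrays. With a pseudocount of 16 the mitochondrial level was 8.80 in place of 8.74. The range in place of the SD gave, by its construction, spreads of 0.194 for cytosolic and 0.195 for mitochondrial genes. Leaving out each array in turn gave a cytosolic level of 10.66 to 10.69, a mitochondrial level of 8.74 to 8.76, a difference of 1.92 to 1.95, and spreads of 0.072 to 0.085 and 0.064 to 0.079. The mean r was then 0.428 to 0.538 within the cytosolic set, 0.108 to 0.248 within the mitochondrial set and 0.085 to 0.337 between them. Under quantile normalization the last 2 were 0.094 each, and under median centring 0.292 and 0.241, and the cause was not tested. The r of the cytosolic with the mitochondrial mean ran from 0.310 under quantile normalization to 0.929 without replicate 8. The count of genes with an adjusted p under 0.05 was 0 for both slopes under every alternative run. For exact permutation its lowest p, 0.00139, left little room for another count. Of the values of single genes and relations 13 moved and 823 did not. Among those that moved was the r of the cytosolic mean with the amino acid response mean. It was 0.891 under median centring in place of 0.952, with a jackknife standard error of 0.048. No paired analysis was possible because the arrays form a single group. The number of arrays limits the precision of every value.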
